A study of Mus musculus with 16 samples.

Results

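The oncofetal liver genes considered here are Afp, H19, Igf2, Gpc3, Dlk1, Igf2bp1, Igf2bp2, Igf2bp3 and Lin28b. They were taken as every array probe, controls aside, that carries the name of one of these 9 genes, which gave 18 of 41174 probes and 9 of 28030 gene names. RNA came from liver cells of c129/S3 mice sorted by flow cytometry for the surface antigen MIC1-1C3 (M) and for CD133, which Prom1 encodes. Double-positive cells (M+133+) and double-negative cells (M-133-) were taken, with 4 and 2 samples from untreated livers and 4 samples of each from DDC livers. DDC mice had received 0.1% (w/w) 3,5-diethoxycarbonyl-1,4-dihydrocollidine in the diet for 2 weeks and untreated mice had not. DDC blocks heme synthesis and injures bile ducts, around which duct-like cells then multiply. The cells came from the nonparenchymal fractions of the liver, and the series title places the work in the isolation of liver progenitor cells. No transgene or deletion is named. These 14 samples filled 16 one-colour arrays, because 2 untreated samples (M+133+ sample 1 and M-133- sample 2) were each hybridized again. The series design counts them as biological replicates, and the number of mice behind each is not stated.

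An oncofetal gene is active in the fetal liver, falls to a low level after birth, and can return in regenerating liver and in liver cancer. Afp encodes alpha-fetoprotein, the fetal counterpart of albumin, made by hepatoblasts and yolk sac. H19 is a long noncoding RNA and Igf2 a growth factor, and the 2 genes are imprinted neighbours expressed from opposite parental chromosomes. Gpc3 encodes glypican 3, a heparan sulfate proteoglycan of the cell surface, and Dlk1 encodes a Notch ligand-like membrane protein used to isolate fetal hepatoblasts. Igf2bp1, Igf2bp2 and Igf2bp3 encode RNA-binding proteins of which Igf2 mRNA is a classic ligand. Lin28b encodes an RNA-binding protein that blocks maturation of the let-7 microRNAs.

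Levels are given as the log2 processed signal minus the 75th percentile of its array, so 0 is the signal of a probe at that percentile, and levels of different probes are not compared. The 75th percentile lay between 602.8 and 2732.2 intensity units, and the scanner software called 60.3% to 77.3% of an array's probes well above background. Its lowest values, 602.8 and 705.9, were on M-133- untreated arrays, of sample 1 and of a repeat of sample 2, whose other array read 2080.8. The dimmest signal still called well above background on an array lay between -7.14 and -5.53 on this scale, so values near or below it carry little information on order. Arrays of the same group correlated at 0.813 to 0.902 across genes and arrays of different sorts at 0.669 to 0.786 (genes are not independent replicates). Prom1 stood between 0.81 and 2.23 in the 8 M+133+ samples and between -8.63 and -3.52 in the 6 M-133- samples, in the direction of the labels. Of 10 bile duct epithelium markers, 9 were higher in M+133+ cells of untreated livers. In the same comparison 11 of 12 hepatocyte, 7 of 8 endothelial and 5 of 10 stellate cell and fibroblast markers were lower. M-133- cells thus carried markers of several cell types. M+133+ untreated samples also had 10 to 12 of the 12 hepatocyte markers well above background. Of 5 mesothelium markers, 1 was called higher in M+133+ cells of untreated livers and 2 after DDC, with 0 lower. In such RNA fewer cells of a type and less RNA per cell cannot be told apart.

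The sequences of both H19 probes are shown first, because the 2 probes gave different answers. With them are 2 of the 3 Igf2bp3 probes, probes 1 and 3, neither of which gave a call. Igf2bp3 probe 2, which gave the Igf2bp3 call, is given by position only, where its values are described. The sequences are written 5′ to 3′ in lower case as on the array, with no part singled out, and their positions are on mm9. H19 probe 1 (A_52_P571350, annotated to AK003142, chr7:149762018-149762165, minus strand) covers 148 bases of genome with 60 bases of probe, so it crosses a splice junction. H19 probe 2 (A_51_P142196, annotated to NR_001592, chr7:149761769-149761828, minus strand) lies 189 bases further along the transcript. Their GC content was 48.3% and 41.7%. Igf2bp3 probe 1 (A_51_P302336, chr6:49037849-49038456, minus strand) spans 608 bases of genome and also crosses a junction, and Igf2bp3 probe 3 (A_52_P271232, chr6:49057401-49057460, minus strand) lies 18944 bases upstream of it in the gene.
H19 probe 1: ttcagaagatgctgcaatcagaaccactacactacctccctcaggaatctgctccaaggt
H19 probe 2: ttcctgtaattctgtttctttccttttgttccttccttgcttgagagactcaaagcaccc
Igf2bp3 probe 1: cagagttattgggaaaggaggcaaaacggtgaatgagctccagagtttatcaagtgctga
Igf2bp3 probe 3: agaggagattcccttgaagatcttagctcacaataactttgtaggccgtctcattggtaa

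Of the 18 probes, 12 were kept because a share of 0.5 or more of some group's samples had them well above background, which left 7 of the 9 members for testing. Igf2bp1 and Lin28b had no kept probe. For each tested member the brightest kept probe, called probe 1, gave the main result. A gene was called at an adjusted p under 0.05 (limma, Benjamini-Hochberg over 23284 genes), and other kept probes were tested in a fit of all 34537 kept probes. On probe 1, Dlk1 was lower in the M+133+ cells of untreated livers, 1 of 7 members, where 8.8% of all genes were called and 5.16% were called lower. After DDC, Gpc3 was lower in M+133+ cells, 1 of 7 members, where 12.9% of all genes were called and 6.47% were called lower. Afp rose with DDC in M-133- cells, 1 of 7 members, where 1% of all genes were called and 0.61% were called higher. With DDC in M+133+ cells limma called 0 of 7 members, against 0.241% of all genes. At an unadjusted p under 0.05 it had 0 of 7, where 2904 of all 23284 genes were. For the interaction of sort and DDC limma called 0 of 7, against 0.258% of all genes. At an unadjusted p under 0.05 it had 2 of 7, where 2325 of all 23284 genes were. In the DDC comparison of M-133- cells the median over all genes moved with the scaling, from -0.36 to 0.06 with quantile normalization and -0.76 with normexp background correction. The median log2 difference of the 7 members was 0.33 and -1.63 in the untreated and DDC sort comparisons, where the median over all genes was -0.07 and 0.31. For DDC it was 0.25 in M+133+ and -0.59 in M-133- cells, beside 0.06 and -0.36 over all genes. A probe could be kept through the one group where it was high, so these counts and medians describe the members that were measurable.

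**Figure D1:**
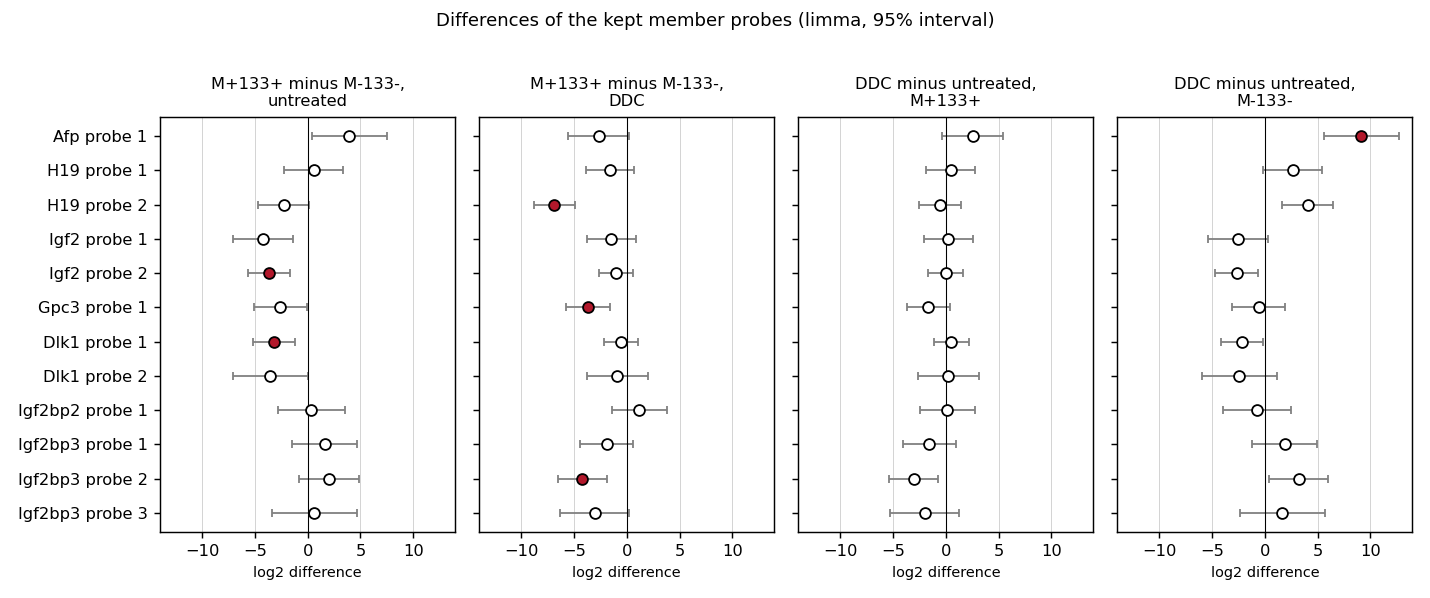
Log2 differences (x axis) of the 12 kept probes (y axis) in 4 comparisons, with bars for the 95% interval of the limma fit and filled points for an adjusted p under 0.05. Afp in M-133- cells has the largest difference, at 9.16, and the filled points of H19, Gpc3, Dlk1 and Igf2bp3 lie below 0 in the sort comparisons, as does that of Igf2 probe 2, whose values were mostly not well above background.

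Afp was the member called with DDC, and the call was in the M-133- cells. In M-133- untreated samples the probe (A_51_P510891, chr5:90937781-90937840, plus strand, 10 spots per array) stood at -7.72 and -8.21, and 0 of their 3 arrays had it well above background. The array of sample 1 and a repeat of sample 2 were dim, with a 75th percentile signal of 602.8 and 705.9. On the other array of sample 2, at 2080.8, Afp read -9.04. In M-133- DDC samples it stood at 2.90, 1.06, 0.82 and 0.02, well above background on every array. The 4 DDC samples were all at or above the 75th percentile of their arrays, and the groups did not overlap. The log2 difference was 9.16 (SE 1.66, adjusted p = 0.0158 in limma), with group means of 1.20 ± 1.22 (SD, n = 4) and -7.97 ± 0.35 (SD, n = 2). Because the untreated group had no array well above background, the fold is a bound, computed against the dimmest signal called well above background on each array or the probe's own signal, whichever was higher. On that basis the ratio of means was at least 143-fold higher after DDC, for the main scaling. The bound is approximate, because the dimmest such signal is not a strict limit of detection. On the slide 4 array of M-133- untreated sample 2 it was -5.67, yet H19 probe 1, at -5.49, was not called well above background. This bound does not cover the spread between samples. The 95% interval of the fitted log2 difference was 5.62 to 12.71, so folds smaller than 143 are not excluded. With normexp background correction the log2 difference was 4.61, also a smaller fold. The authors' deposited table gives 435-fold to 699-fold for the 10 spots, with a false discovery rate of 0%.

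The Afp difference in M-133- cells was as large within slides, at 10.61 on slide 1 and 9.98 on slide 2, the 2 slides that held both groups. It lost its call without either M-133- untreated sample, at adjusted p = 0.103 without sample 1 and 0.0829 without sample 2, with differences of 9.41 and 8.92. The sample left alone was then assumed to vary like the other groups. With normexp background correction the difference was 4.61 and stayed past the threshold (adjusted p = 0.0451). Of the 12 hepatocyte markers limma called 0, with 2 at an unadjusted p under 0.05, and their summed level (log2 of the sum of the linear levels) ran from 8.45 to 9.61 in untreated and from 8.17 to 8.86 in DDC samples. Proliferation markers did move, with 2 of 8 called higher and 0 lower, and summed levels of 1.68 to 3.93 before and 5.58 to 6.44 after DDC. Bile duct markers had 2 of 10 called higher, Spp1 and Sox9, with summed levels of 0.16 to 1.39 before and 3.69 to 5.80 after DDC. Stellate cell and fibroblast markers had 1 of 10 called higher, with summed levels of 5.79 to 6.64 before and 7.36 to 8.52 after DDC. Of the 8 endothelial markers limma called 0, with 5 at an unadjusted p under 0.05 and a median difference of -2.75, and their summed level ran from 7.97 to 8.91 before and from 3.63 to 6.53 after DDC. The part of these marker shifts in the Afp result was not tested.

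In M+133+ cells Afp was already measurable without DDC. M+133+ untreated samples stood at -3.39, -1.68, -2.26 and -8.70, of which the last was not well above background. The repeat arrays of sample 1 read -2.07 and -4.72, so the spread within 1 sample was also wide. M+133+ DDC samples stood at -0.29, 0.74, -3.28 and -3.00, all well above background. The groups overlapped, and the difference of 2.55 (SE 1.36, 95% interval -0.34 to 5.44) was not called (adjusted p = 0.463 in limma, exact two-sided permutation p = 0.229). By mean level the order was M-133- DDC, M+133+ DDC, M+133+ untreated and M-133- untreated, and each neighbour in that order overlapped the next. The fitted sort difference was 3.96 (SE 1.66, adjusted p = 0.191) in untreated and -2.66 (SE 1.36, adjusted p = 0.237) in DDC livers. With no M-133- untreated array well above background, the untreated ratio of means is an approximate bound of the same kind. For the main scaling it was at least 3.88-fold higher in M+133+ cells. It does not cover the spread between samples, and the 95% interval of the fitted difference was 0.41 to 7.50. Over the processing alternatives that difference ran from 0.68 to 5.27. Within slides it was 6.97 on slide 2 and -1.31 on slide 4, where neither array had Afp well above background. Without M+133+ untreated sample 4 the fitted untreated difference was 5.52 and passed the threshold (adjusted p = 0.0145). The interaction was -6.61 (SE 2.14, adjusted p = 0.298), so a difference between the DDC effects of the 2 sorts was not called.

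The 250 bases before the Afp start in RefSeq are shown because Afp had the largest fitted difference among the 12 kept probes and its promoter is a textbook target of the hepatic factors described below. They lie at chr5:90490464-90490713 on GRCm38.p6, plus strand, a later build than the arrays' mm9. Capitals mark matches to GTTAA, a motif of several liver gene promoters, to TATAAA, the TATA box core, and to CCAAT, each searched on both strands.
Afp promoter: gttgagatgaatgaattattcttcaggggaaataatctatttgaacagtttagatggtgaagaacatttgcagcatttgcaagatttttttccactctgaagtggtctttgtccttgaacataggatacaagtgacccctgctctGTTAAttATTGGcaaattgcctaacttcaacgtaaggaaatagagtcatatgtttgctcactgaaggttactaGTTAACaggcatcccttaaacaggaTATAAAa
GTTAA matched 3 times, at 105 to 101 bases before the start and as 2 matches on opposite strands that overlap at 32 to 27. Among 32851 RefSeq windows of the same length, 21.7% held GTTAA and 1.12% held it at least 3 times. TATAAA matched once, 7 to 2 bases before the start, and was present in 12.4% of windows. CCAAT matched once on the minus strand and was present in 33.8%. Positions are counted from the RefSeq start, which was not checked against a measured transcription start. A match is a description of the letters and not of a bound site.

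The albumin family and the regulators of Afp formed a list of 20 genes, all tested. In untreated livers 4 were higher and 3 lower in M+133+ cells (35% against 8.8% of all genes), with a list median of -0.38 beside -0.07. Foxa2, a pioneer factor of endoderm, stood 7.35-fold above M-133- cells (2.88 in log2 units, SE 0.58, adjusted p = 0.00565). Alb, which encodes albumin, was 3.6-fold lower (log2 difference -1.85, SE 0.39, adjusted p = 0.00756) and Gc, the vitamin D-binding protein of the same gene cluster, 11-fold lower (adjusted p = 0.00149). After DDC 3 were higher and 3 lower in M+133+ cells, among them Foxa1 (5.95, adjusted p = 0.00122) higher, and Foxa3 (-4.68, adjusted p = 0.00203) and Gc (-2.93, adjusted p = 0.000658) lower, which made 30% against 12.9%, with a list median of -0.996 beside 0.31. DDC itself changed 0 of the 20 in M+133+ cells and 0 of the 20 in M-133- cells in limma, with 4 and 2 at an unadjusted p under 0.05. Alb in M-133- cells had a difference of -0.87 with DDC (adjusted p = 0.363), where Afp rose.

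**Figure D2:**
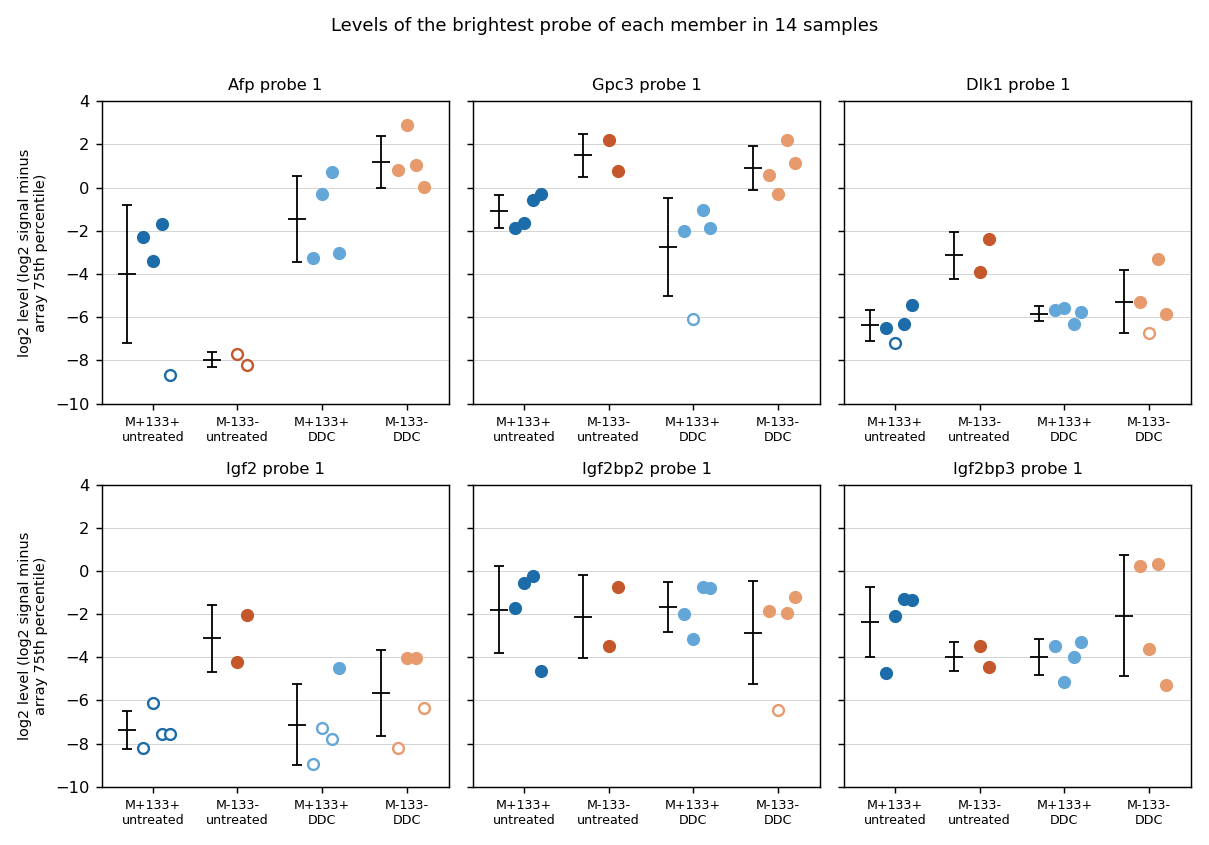
Log2 level (y axis) of the brightest kept probe of 6 members in each sample, by group (x axis), with the mean and SD as a black bar beside the points and open points where not every array of the sample had the probe well above background. Afp is open in both M-133- untreated samples and filled in all 4 M-133- DDC samples, Gpc3 lies highest in the M-133- groups, and the Igf2bp2 groups overlap.

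H19 gave a called sort difference after DDC on one probe and not on the other. On probe 2, M+133+ DDC samples stood at -8.12, -6.32, -6.93 and -7.21, of which 1 was well above background. M-133- DDC samples stood at -1.54, 1.38, 1.31 and -2.29, all well above background. The lowest M-133- value, -2.29, stood well above the highest M+133+ value, -6.32. H19 by probe 2 was lower in M+133+ DDC cells (log2 difference -6.86, SE 0.93, adjusted p = 0.000201 in limma over all kept probes, of which 12.5% were called). With 1 of 4 M+133+ DDC arrays well above background, no fold is given. The exact two-sided permutation p was 0.0286, the smallest that 4 against 4 samples allow, and 0.229 after adjustment over 24 tests of single probes. The authors' deposited table gives 153-fold in the same direction, with a false discovery rate of 0.2%. The call of probe 2 held in each of the 14 fits that left out 1 sample, where the difference ran from -7.53 to -6.31. It also held when slide entered as a fixed block (-5.87, adjusted p = 0.0205). No slide held DDC samples of both sorts, so that fit compared them only through untreated arrays. With normexp background correction the difference was -4.12 (adjusted p = 0.00138).

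H19 probe 1 read the same samples differently. M+133+ DDC samples stood at -4.50, -2.69, -4.58 and -4.08, and M-133- DDC samples at -1.77, 0.96, -2.71 and -5.82. All 8 were well above background and the groups overlapped. The difference was -1.63 (SE 1.07, adjusted p = 0.373), with group means of -3.96 ± 0.88 and -2.33 ± 2.80 (SD, n = 4 each). M-133- DDC sample 4, the lowest of its group on both probes, was below every M+133+ DDC sample on probe 1 but above all of them on probe 2. Over the 14 samples the probes correlated at r = 0.62, as a description. The 2 probes had the same sign but disagreed in size, so the size of the H19 difference depends on which probe is read. With the mean of the kept probes, which takes in probe 2, the difference was -4.24 (adjusted p = 0.00468 in limma). The cause of the disagreement was not tested.

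Before DDC, the H19 sort difference passed the threshold on neither probe. On probe 2, M+133+ untreated samples stood at -5.85, -7.74, -6.50 and -6.42 and M-133- untreated samples at -3.27 and -5.39, a difference of -2.30 (SE 1.14, adjusted p = 0.302) although the groups did not overlap. On probe 1 the levels were -4.32, -4.81, -4.58 and -3.91 against -4.75 and -5.19, a difference of 0.57 (SE 1.31, adjusted p = 0.896) that had the other sign with normexp background correction. Within M-133- cells, DDC samples were higher on probe 2 by 4.05 (SE 1.14, adjusted p = 0.124) and on probe 1 by 2.64 (SE 1.31, adjusted p = 0.427), and neither passed the threshold. Within slides the probe 2 difference was 1.73 on slide 1 and 6.52 on slide 2. In M+133+ cells the DDC difference was -0.52 (SE 0.93, adjusted p = 0.891) on probe 2 and 0.44 (SE 1.07, adjusted p = 0.92) on probe 1.

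**Figure D3:**
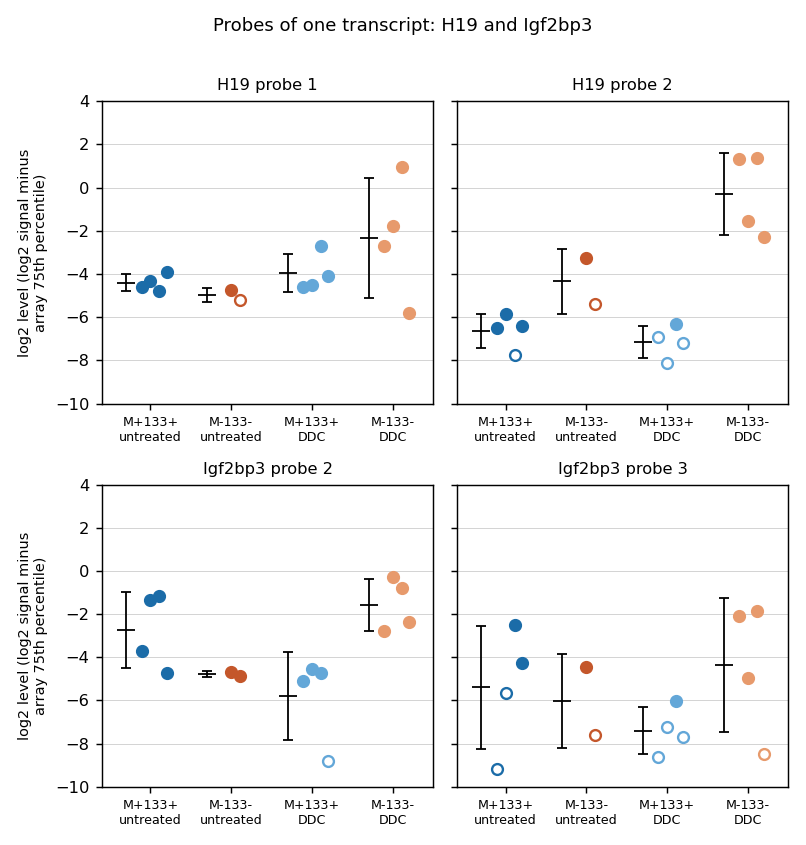
Log2 level (y axis) of both H19 probes and of 2 of the 3 Igf2bp3 probes in each sample, by group (x axis), with the mean and SD as a black bar beside the points and open points where not every array of the sample had the probe well above background. On H19 probe 2 and Igf2bp3 probe 2 the M-133- DDC samples lie above all M+133+ DDC samples, whereas the groups overlap on H19 probe 1 and Igf2bp3 probe 3.

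Igf2, the growth factor next to H19, was near background in most samples, and its highest mean was in M-133- cells of untreated livers. On probe 1 (A_51_P516833, chr7:149837115-149837174, minus strand) M-133- untreated samples stood at -4.23 and -2.03, both well above background. M+133+ untreated samples stood at -6.14, -7.55, -8.21 and -7.58, of which the first was well above background on 1 of its 2 arrays (-3.77 and -8.51) and the others on none. The groups did not overlap, and the difference of -4.24 (SE 1.34) missed the threshold (adjusted p = 0.0654), but passed it without M+133+ DDC sample 4 (0.0397) or M-133- DDC sample 3 (0.0417), which enter only through the shared spread. Probe 2 (A_51_P516826, 10 spots per array) stood at -5.86 and -3.89 in M-133- and at -6.90, -9.11, -9.28 and -8.91 in M+133+ untreated samples. Probe 2 was well above background on 1 of 3 arrays in M-133- and 1 of 5 in M+133+ untreated samples, and it was kept only through the M-133- untreated group. Its difference of -3.68 (SE 0.95, adjusted p = 0.026 over all kept probes, of which 7.89% were called) is therefore a description and no support for probe 1. It missed the threshold without M-133- untreated sample 2 (adjusted p = 0.269) and without M+133+ untreated sample 2, 3 or 4 (adjusted p = 0.0587, 0.0614 and 0.0537). The authors' deposited table gives probe 1 as 20.6-fold lower in M+133+ cells, with a false discovery rate of 2.19%.

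After DDC, Igf2 probe 1 stood at -7.28, -7.78, -8.93 and -4.49 in M+133+ cells and at -4.05, -4.04, -8.18 and -6.33 in M-133- cells. The groups overlapped and the difference was -1.47 (SE 1.09, adjusted p = 0.436). The DDC difference in M-133- cells was -2.52 (SE 1.34, adjusted p = 0.467), opposite in sign to that of H19, and neither passed the threshold. Neither imprinted neighbour had a called DDC difference.

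The other IGF ligands, receptors and binding proteins formed a list of 17 genes, of which 16 were tested. In untreated livers 1 was higher and 5 lower in M+133+ cells (37.5% against 8.8% of all genes), with a median of -1.83 beside -0.07. Igfbp4, a secreted IGF-binding protein, was 103-fold lower (log2 difference -6.68, SE 0.58, adjusted p = 1.07e-05), Igfbp6 34.6-fold lower (adjusted p = 0.00228) and Igfbp7 7.64-fold lower (adjusted p = 0.000239). Igf2r, the receptor that clears IGF2 and is itself imprinted, was 5.67-fold higher in M+133+ cells (2.50, SE 0.48, adjusted p = 0.00418). After DDC 2 were higher and 5 lower in M+133+ cells (43.8% against 12.9%). Igfbp3 was lower (log2 difference -9.09, SE 1.74, adjusted p = 0.00255), with an M+133+ mean of -6.57 that lay near the dimmest signals called well above background, so no fold is given. Igf1 was 6.44-fold lower (adjusted p = 0.00515) and Igf2r 3.08-fold higher (adjusted p = 0.012). DDC changed 0 of 16 in either sort in limma, with 2 in M+133+ and 3 in M-133- cells at an unadjusted p under 0.05.

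The wider imprinted gene network had 23 genes listed and 21 tested, Igf2r again among them. In M+133+ cells of untreated livers 1 was higher, Igf2r, and 2 were lower (14.3% against 8.8% of all genes). Asb4, a subunit of a ubiquitin ligase, was 46.2-fold lower (log2 difference -5.53, SE 1.27, adjusted p = 0.013) and Mest, a paternally expressed gene of fetal mesoderm, 26.8-fold lower (-4.74, SE 1.19, adjusted p = 0.0216). Both were lower again after DDC, Asb4 by 6.45 (adjusted p = 0.000743) and Mest by 5.00 (adjusted p = 0.00284) on the log2 scale. Their M+133+ DDC means, -5.67 and -5.71, lay near the dimmest signals called well above background. Kcnq1ot1, a paternally expressed antisense RNA, was higher in M+133+ DDC cells by 5.93 (SE 1.41, adjusted p = 0.0108), although its groups overlapped. Its M-133- DDC mean of -5.17 also lay near those dimmest signals. The median difference of the list was -1.25 in untreated and -0.59 in DDC livers. DDC changed 0 of 21 in either sort in limma, with 3 and 4 at an unadjusted p under 0.05 in M+133+ and M-133- cells.

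Gpc3 was lower in the M+133+ cells after DDC. M-133- untreated samples stood at 2.20 and 0.79 and M-133- DDC samples at -0.29, 2.19, 0.58 and 1.16. M+133+ untreated samples stood at -1.66, -0.59, -1.85 and -0.30 and M+133+ DDC samples at -6.11, -1.05, -2.00 and -1.89. The M+133+ samples lay below the M-133- samples of the same treatment with no overlap, and over both treatments the nearest values were -0.30 and -0.29. The repeat arrays of M-133- untreated sample 2 read 1.72 on slide 2 and -0.14 on slide 4. Within slides the untreated sort difference was -3.81 on slide 2 and -0.16 on slide 4. After DDC the difference was -3.67 (SE 0.96, adjusted p = 0.0194 in limma), 12.7-fold, with an exact two-sided permutation p of 0.0286 and 0.229 over 24 tests. In untreated livers it was -2.60 (SE 1.18, adjusted p = 0.236), where the authors' deposited table gives 6.33-fold lower in M+133+ cells with a false discovery rate of 2.58%. DDC itself gave -1.66 (SE 0.96, adjusted p = 0.51) in M+133+ and -0.59 (SE 1.18, adjusted p = 0.902) in M-133- cells, and neither passed the threshold.

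The Gpc3 call after DDC rested in part on single samples. M+133+ DDC sample 1, at -6.11, was the 1 sample with Gpc3 not well above background, and without it the difference was -2.56 (adjusted p = 0.0294). Its array was also dim, with a 75th percentile signal of 930.9 against 2036.9 to 2411.3 on the other arrays of its group. Without M-133- DDC sample 2 the difference was -3.25 and the adjusted p 0.0551. No slide held DDC samples of both sorts, and a fit with slide as a fixed term gave -2.89 (adjusted p = 0.367). The authors' deposited table gives 13.9-fold lower in M+133+ cells, with a false discovery rate of 6.56%. Markers of other cell types moved with it. All 10 stellate cell and fibroblast markers were lower in M+133+ DDC cells, with summed levels of 0.96 to 4.10 against 7.36 to 8.52 in M-133- DDC samples. Of the hepatocyte markers 9 of 12 and of the endothelial markers 7 of 8 were lower. The same markers moved in the same DDC comparison for H19 and Igf2bp3. Their part in the results on Gpc3, H19 and Igf2bp3 was not tested.

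Other glypicans and the enzymes of heparan sulfate formed a list of 17 genes, 16 of them tested. In untreated livers limma called 0 of 16, with 6 at an unadjusted p under 0.05, and after DDC 0 were higher and 2 lower in M+133+ cells (12.5% against 12.9% of all genes). Those were Hpse, which encodes heparanase, 28-fold lower (log2 difference -4.81, SE 1.23, adjusted p = 0.0169), and Ndst1, a sulfotransferase of heparan sulfate, 2.4-fold lower (-1.26, SE 0.37, adjusted p = 0.0339), whose groups overlapped. The list median was -0.23 and -0.35 in the 2 sort comparisons. DDC changed 0 of 16 in either sort, with 3 and 5 at an unadjusted p under 0.05 in M+133+ and M-133- cells.

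Dlk1 was highest in M-133- cells of untreated livers. On probe 1 (A_51_P135618, chr12:110698667-110698726, plus strand) these 2 samples stood at -3.90 and -2.38, well above background on all 3 arrays. M+133+ untreated samples stood at -7.21, -6.32, -6.48 and -5.46, the first not well above background. The groups did not overlap, and Dlk1 was lower in M+133+ cells (log2 difference -3.23, SE 0.93, adjusted p = 0.043 in limma). The M+133+ mean of -6.37 lay near the dimmest signals called well above background, so no fold is given. The call was close to the threshold and was lost in 9 of the 14 fits that left out 1 sample, with an adjusted p of 0.097 without M-133- untreated sample 1, 0.344 without M-133- untreated sample 2, and 0.109, 0.0765 and 0.0824 without M+133+ untreated samples 1, 2 and 3. Leaving out M+133+ DDC sample 2, 3 or 4, or M-133- DDC sample 3, gave 0.051 to 0.0555. It was also lost with the samples blocked by title prefix (-3.71, adjusted p = 0.119) or by replicate number (-3.30, 0.0758), with the first repeat arrays alone (-3.08, 0.0577), with no filter on dim probes (0.0514) and in a fit of all kept probes (0.0537). The authors' deposited table gives 14.3-fold, with a false discovery rate of 0.39%.

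The other Dlk1 probe (A_52_P177324, chr12:110698428-110698487, plus strand) lies 179 bases from probe 1. Its M-133- untreated samples stood at -1.04 and -7.82 and only the first was well above background. Its difference was -3.54 (SE 1.66, adjusted p = 0.265). After DDC, Dlk1 probe 1 stood at -5.55, -6.33, -5.69 and -5.78 in M+133+ and at -6.71, -3.29, -5.30 and -5.86 in M-133- cells. The groups overlapped and the difference was -0.55 (SE 0.76, adjusted p = 0.713). DDC samples of M-133- cells were lower than untreated ones by 2.15 (SE 0.93, adjusted p = 0.338), which was not called, and the groups overlapped. In untreated livers the hepatocyte list had 11 of 12 markers lower in M+133+ cells, with summed levels of 5.67 to 6.41 against 8.45 to 9.61. Endothelial markers had summed levels of 1.97 to 3.74 against 7.97 to 8.91, and stellate cell and fibroblast markers 0.73 to 2.37 against 5.79 to 6.64. The part of these markers in the Dlk1 result was not tested.

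**Figure D4:**
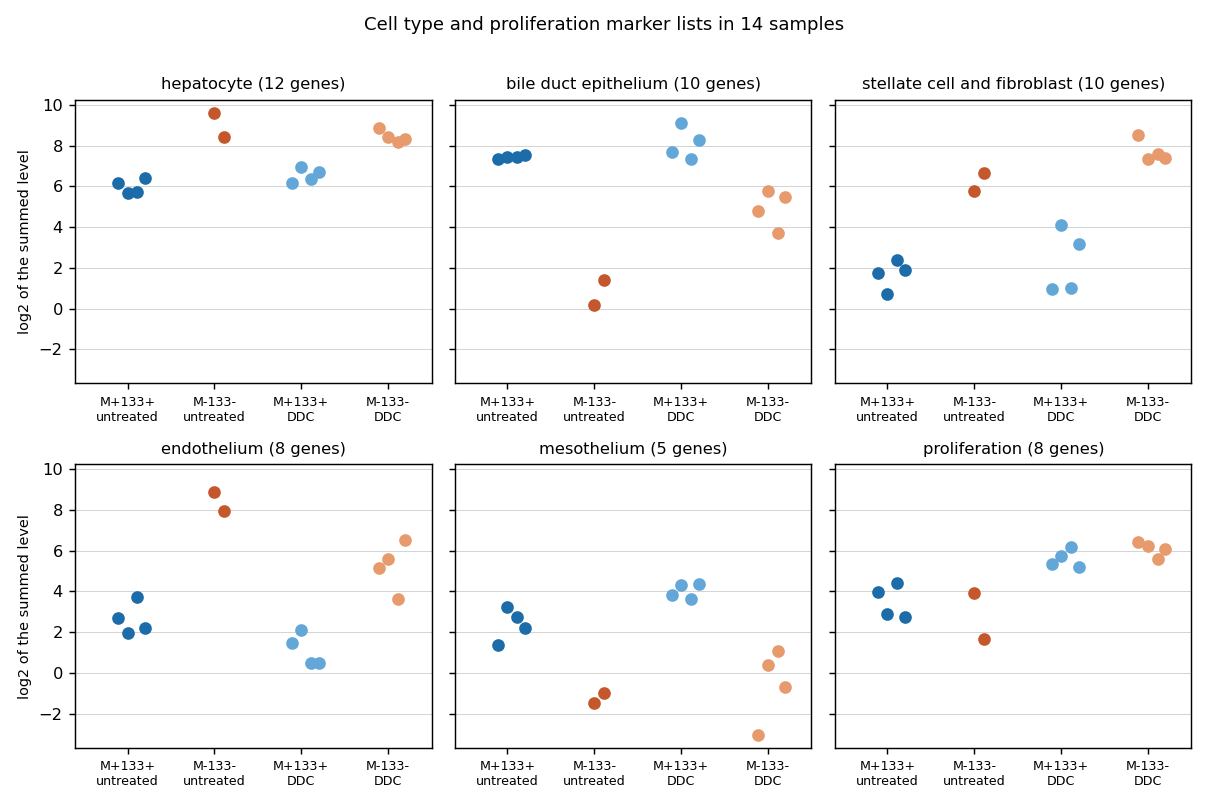
Log2 of the summed level (y axis) of 6 marker lists in each of the 14 samples, by group (x axis). In every sample shown, hepatocyte, stellate cell and endothelial sums are higher in M-133- than in M+133+ samples of the same treatment, bile duct sums are lower, and the proliferation list is higher in both DDC groups, at 5.19 to 6.17 in M+133+ and 5.58 to 6.44 in M-133- cells.

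Of the Igf2bp genes, Igf2bp1 was at or near background. Its 3 probes were well above background in 1, 2 and 0 of the 14 samples, and the highest level was -3.77, in M+133+ untreated sample 3. Igf2bp2, the paralog that remains active in many adult tissues, was well above background in 13 of 14 samples. Its M+133+ untreated samples stood at -0.58, -0.21, -1.74 and -4.65 and its M-133- untreated samples at -3.49 and -0.76. After DDC it stood at -3.16, -0.75, -1.99 and -0.81 in M+133+ and at -6.43, -1.96, -1.84 and -1.21 in M-133- cells. Every group overlapped its neighbour, and the differences in the 4 comparisons ran from -0.74 to 1.18, each with an SE of at least 1.22. The 95% interval of the DDC difference was -2.48 to 2.73 in M+133+ and -3.93 to 2.45 in M-133- cells. The signs of the untreated sort difference and of the DDC difference in M+133+ cells turned under some processing alternatives.

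Igf2bp3, the family member known from fetal tissue and tumours, was measured by 3 kept probes, of which 1 gave a call. Probe 1 was well above background in all 14 samples. It stood at -2.10, -1.32, -4.75 and -1.36 in M+133+ untreated, at -3.50 and -4.45 in M-133- untreated, at -5.13, -4.0, -3.46 and -3.28 in M+133+ DDC and at -3.59, 0.33, 0.24 and -5.26 in M-133- DDC samples. All neighbouring groups overlapped, and the sort difference after DDC was -1.89 (SE 1.18, adjusted p = 0.345). On probe 2 (A_52_P508974, chr6:49035710-49035769, minus strand) M+133+ DDC samples stood at -4.54, -4.71, -5.10 and -8.82, the last not well above background, and M-133- DDC samples at -0.30, -0.81, -2.80 and -2.37. There the groups did not overlap. Igf2bp3 by probe 2 was lower in M+133+ DDC cells (log2 difference -4.22, SE 1.08, adjusted p = 0.0175 over all kept probes, of which 12.5% were called). The exact two-sided permutation p was 0.0286, and 0.229 over 24 tests. The M+133+ DDC mean of -5.79 lay near the dimmest signals called well above background, so no fold is given. The call was lost without M+133+ DDC sample 4 (adjusted p = 0.0518), without M-133- DDC sample 1 (0.0515) and in a fit with slide as a fixed term (-3.55, adjusted p = 0.226). The authors' deposited table gives 22.9-fold, with a false discovery rate of 1.17%.

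Igf2bp3 probe 2 also had differences of opposite sign with DDC in the 2 sorts. In M+133+ cells, whose untreated samples stood at -1.36, -1.16, -3.73 and -4.72, the DDC difference was -3.05 (SE 1.08, adjusted p = 0.265). In M-133- cells, whose untreated samples stood at -4.67 and -4.87, it was 3.20 (SE 1.32, adjusted p = 0.31). The interaction was -6.25 (SE 1.71, adjusted p = 0.196), so this contrast between sorts was not called. Probes 1 and 3 correlated at r = 0.865 over the 14 samples, probes 1 and 2 at 0.35 and probes 2 and 3 at 0.501. Probe 3 was well above background in 7 of 14 samples, and its sort difference after DDC was -3.04 (SE 1.54, adjusted p = 0.231).

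Lin28b was not detected. Its 3 probes were well above background on 0 of the 16 arrays, with sample levels (repeat arrays averaged) between -9.26 and -6.39. The let-7 and Lin28 axis, with 22 genes listed and 20 tested, had 0 called in untreated livers by limma, with 5 at an unadjusted p under 0.05. After DDC Xpo5, which exports microRNA precursors from the nucleus, was 9.82-fold higher in M+133+ cells (log2 difference 3.30, SE 0.86, adjusted p = 0.0189), and Tut7, a uridylyltransferase acting on let-7 precursors, 2.93-fold lower (adjusted p = 0.047), although its groups overlapped. That was 10% of the list against 12.9% of all genes. DDC changed 0 of 20 in either sort, with 2 and 5 at an unadjusted p under 0.05. Of 12 RNA-binding proteins and RNA methylation factors that act with the Igf2bp proteins, such as Elavl1 and Mettl3, all tested, limma called 0 in each of the 5 comparisons, with 4, 1, 1, 2 and 1 at an unadjusted p under 0.05 in the untreated and DDC sort comparisons, DDC in either sort (M+133+, then M-133-) and the interaction.

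Other fetal liver and liver tumour markers, 19 genes all tested, were followed beside the members. In untreated livers 4 were higher and 0 lower in M+133+ cells (21.1% against 8.8% of all genes), led by Tspan8, a tetraspanin (log2 difference 10.48, SE 0.85, adjusted p = 6e-06), Scd2, a desaturase of fetal liver (3.36, adjusted p = 0.00108), and Cd24a, a surface marker of duct and progenitor cells (3.15, adjusted p = 0.00881). After DDC 6 were higher and 2 lower (42.1% against 12.9%). Onecut2, a factor of liver and duct development, was 26.8-fold higher (adjusted p = 0.00206) and Spink1, a secreted trypsin inhibitor, 159-fold lower in M+133+ cells (-7.32, SE 1.40, adjusted p = 0.00259). With DDC in M-133- cells Tspan8 rose (log2 difference 7.38, SE 0.85, adjusted p = 0.000619), as Afp did, and Hk1, a hexokinase, fell by 2.66 (adjusted p = 0.0254). The Tspan8 mean of the 2 M-133- untreated samples, -5.18, lay near the dimmest signals called well above background, so no fold is given. Tspan8 was also the 1 listed gene with a called interaction (-6.63, SE 1.1, adjusted p = 0.0235). DDC in M+133+ cells changed 0 of 19 in limma, with 2 at an unadjusted p under 0.05.

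The genes whose levels followed each member most closely over the 14 samples were found by Pearson correlation among the tested genes, for the 6 members with probe 1 well above background in at least 7 samples. Afp was followed by Chmp4b (r = 0.895), Cdc20 (0.882) and Birc5 (0.875), of which the last is one of the proliferation markers. H19 probe 1 was followed by Tnfsf18 (0.942), Chl1 (0.878) and Heyl (0.864). Gpc3 was followed by C1ra (0.906) and Dpysl2 (0.896). Dlk1 was followed by Hoxa4 (0.937), Gria1 (0.914) and Phex (0.911), Igf2bp2 by Supt6 (0.865), Ttll4 (0.841) and Clip2 (0.827), and Igf2bp3 by Vmn2r8 (0.875), Vmn2r89 (0.847) and Hexim2 (0.812). These are the highest of 23284 values each, the samples share groups and arrays, and no p is given.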

How the data were processed

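Agilent Feature Extraction 10.5.1.1 wrote the deposited scanner files, in which a spot's brightness is an intensity: raw mean, local background, and a processed signal corrected for both background and position, per the file headers. The authors also deposited a table of signed fold changes, treated as a score because the sign carries the direction, with their false discovery rates. The submitters' processing notes name limma, and how the authors normalized is not given in the sources used here. RNA was amplified as cDNA and labelled with Cy3, per the labels.

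From these, log2 processed signal minus the array's 75th percentile was computed. Spots flagged as outliers were left out, spots of a probe and then repeat arrays of a sample were averaged, and 65 probes with a missing value were dropped. Gene names came from a RefSeq table (GRCm38.p6, names only) by accession (26795 probes), symbol (5122) or synonym (929), and 8328 probes kept the file's name. All 14 samples entered one two-sided fit with an intensity trend (limma 3.58.1, R 4.3.3). SE is the moderated standard error. Precision is limited by the number of arrays and by a group of 2 samples. The fit was tested on simulated data. Single probes were also compared by exact permutation where both groups had n = 4.

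The members, gene lists and tests were chosen with earlier results of these data known. Named genes were all members, up to 4 called genes per list and comparison by smallest adjusted p, and 3 genes of like pattern per member, clone-like identifiers left out, and 2 genes the rule names are not reported here. Alternatives were quantile normalization, normexp background correction (offset 50), no filter on dim probes, the mean of kept probes, slide and replicate blocks, single repeat arrays, no intensity trend and leaving out each sample. Added after seeing the data were other kept probes in place of probe 1, and leaving out both samples without an array whose 75th percentile signal was over 1000. Those dim samples were M-133- untreated sample 1 and M+133+ DDC sample 1.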

Additional observations from a re-analysis of the deposited data

Results flagged for a closer look

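A sample far from the others of its group was sought in 36 groups of 4 samples, over the 12 kept probes of the members, by the gap to the nearest value divided by the group's range, against Dixon's 95% critical value. That value was passed in 4 groups, and chance passes about 1 group in 20. Igf2 probe 2 in M+133+ untreated sample 1 stood at -6.90 with the nearest other sample at -8.91 (ratio 0.8469). The same probe in M+133+ DDC sample 1 stood at -8.04 with the nearest at -8.73 (ratio 0.9778), and no array of that group had it well above background. Igf2bp2 in M-133- DDC sample 1 stood at -6.43 with the nearest at -1.96 (ratio 0.8566). Igf2bp3 probe 2 in M+133+ DDC sample 4 stood at -8.82 with the nearest at -5.10 (ratio 0.8683), and the called sort difference of this probe was -3.21 without that sample (adjusted p = 0.0518 in limma).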

How the results depend on the processing

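Over the planned settings that kept all samples, 372 of 399 member differences kept their direction and side of the threshold, 9 lost a call, 9 gained one and 9 turned sign; over fits without one sample it was 494 of 532, with 18, 3 and 17. The settings added later gave 68 of 87, with 11, 3 and 5. Members called in the untreated sort comparison (1 of 7) numbered 0 with normexp, with no filter and without both dim samples, and 0 to 2 without single samples. After DDC (1) they numbered 2 with the mean of kept probes, 0 with slide as a fixed block, 3 with any kept probe, and 0 to 1 without single samples. For DDC in M-133- cells (1) it was 0 without both dim samples and 0 to 1 without single samples. Over all genes, the untreated sort comparison called 2048, but 822 with the title-prefix replicate block, 908 without both dim samples and 818 to 2214 without single samples. The DDC sort comparison called 3005, but 1140 with slide fixed. DDC in M+133+ called 56, but 135 with quantile normalization, 86 with the mean of probes, 22 with slide fixed, 20 with the replicate block, 22 without the intensity trend, 20 without both dim samples and 6 to 112 without single samples. DDC in M-133- called 234, but 142 with slide fixed, 115 with the replicate block, 109 without both dim samples and 76 to 280 without single samples. The interaction called 60, but 38 with normexp, 11 with slide fixed, 24 with the replicate block, 1 with the title-prefix block, 37 without the trend and 18 to 110 without single samples. The sign of the untreated H19 difference (0.57) turned with normexp (-0.58), the mean of probes (-0.86) and probe 2 (-2.30), and that of Igf2bp2 (0.33) with normexp (-0.0725), slide fixed (-1.10) and without both dim samples (-1.04). With DDC in M+133+ cells the sign turned for H19 with the mean of probes (-0.036) and probe 2 (-0.52), for Igf2bp2 with slide as a random block (-0.0738), the first repeat array (-0.13) and the authors' deposited fold (-0.044), and for Igf2 with the second repeat array (-0.35) and probe 2 (-0.016). Gpc3 in M-133- cells turned without both dim samples (0.12). Without single samples the sign also turned for Igf2bp2 in the untreated sort comparison (-1.04 to 1.69), DDC sort comparison (-0.008 to 1.73), DDC in M+133+ (-0.83 to 0.65), DDC in M-133- (-2.10 to 0.63) and interaction (-0.51 to 2.22), for Dlk1 in the DDC sort comparison (-1.02 to 0.12), for Igf2 with DDC in M+133+ (-0.63 to 0.85), and for Gpc3 with DDC in M-133- (-1.29 to 0.12) and in the interaction (-1.78 to 0.0399). The Dlk1 call was also lost with normexp (-1.98, adjusted p = 0.0526), no filter, without both dim samples (-3.99), the first repeat array (-3.08), the mean of probes (-3.38) and slide as a random block (-3.10). Igf2 in the untreated sort comparison passed with the mean of probes (-3.96), slide as a random block (-4.44) and the first repeat array (-4.45). Igf2 probe 2 no longer passed with quantile normalization (-3.24), normexp (-2.01), slide fixed (-3.25), the replicate block (-3.19), the title-prefix block (-3.22) and the second repeat array (-2.52), and the call of Igf2bp3 probe 2 was lost with the title-prefix block (adjusted p = 0.0505). Same-numbered samples did not deviate together (correlations of -0.06 to 0.08). A title prefix is shared by 1 sample of each sort in 6 cases, and the labels do not say what it marks; these pairs correlated at -0.01 to 0.11, and in 4 of 6 the M+133+ sample correlated best with its own prefix among M-133- samples of its treatment. Neither was taken as a pairing. With the replicate block the untreated sort difference was 5.27 for Afp, which then passed, and -3.30 for Dlk1, which then did not; with the title-prefix block it was 5.14 (adjusted p = 0.0362) and -3.71 (0.119). The higher share of calls for DDC in M-133- was 60.7%, 74.4% with quantile normalization and 41.3% with normexp. For the untreated sort comparison it was 41.3%, and 30.0% with normexp. Except where a setting tests fewer samples, the cause of these shifts was not tested. Signals near the background limit most of the Igf2, Igf2bp1, Lin28b and Dlk1 values.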
